A study of Mus musculus with 27 samples.

Results

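Matricellular proteins are secreted into the extracellular matrix, where they act on cells and growth factors rather than build fibres. Their genes Ccn1, Ccn2, Ccn4, Ccn5, Tnc, Thbs1, Thbs2, Postn and Sparc were followed here, 9 genes of the 24454 in the table, chosen by name. They were measured by RNA sequencing in tumour-derived mammary lines of the MMTV-PyMT mouse (FVB/N), in which the MMTV promoter drives the polyoma middle T oncogene in the mammary epithelium. All lines carried a mutant allele of Bcl9 and Bcl9L, the coactivators that join β-catenin to Pygopus: ΔHD1 cannot bind Pygopus, and ΔHD2 cannot bind β-catenin. In ΔHD1/fl and ΔHD2/fl lines a floxed wild-type allele was still present, and in ΔHD1/- and ΔHD2/- lines it had been recombined with an adenovirus carrying Cre and GFP, followed by sorting for GFP. Each genotype had 2 lines, except ΔHD2/- with 3, and each line was grown with no cytokine (labelled 4 days), with Wnt3a (100 ng/ml, 3 days) or with TGFβ (2 ng/ml, 4 days), which gave 27 libraries in 12 groups.

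The CCN proteins are modular secreted proteins that bind integrins and proteoglycans. Ccn1 and Ccn2 are textbook target genes of TGFβ and of the Hippo effectors Yap and Tead, Ccn4 was named as a Wnt1-inducible gene, and Ccn5 lacks the C-terminal domain of the family. Tenascin C (Tnc), periostin (Postn) and thrombospondins mark wound, tumour stroma and cells in epithelial-mesenchymal transition, thrombospondin 1 (Thbs1) can release TGFβ from its latent form, and Sparc is a collagen-binding glycoprotein.

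Levels are given as CPM, reads per 1000000 reads assigned to genes, and, wherever genes are compared with each other, as RPKM, which is CPM per kilobase of exon. Libraries held 21.86 to 33.69 M reads (1 M is 1000000), so that a count of 0 allows a level of up to 0.089 to 0.137 CPM by counting error alone. The Wnt3a treatment was read out by Axin2, a feedback gene of Wnt signalling, which was at 0.131 to 2.97 CPM without cytokine and at 13.5 to 80.8 CPM with Wnt3a. Bcl9 was at 34.0 to 67.8 CPM and Bcl9L at 138 to 323 CPM in untreated lines, which does not check the labels because the mutant allele is counted too.

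The lines were not alike in cell type markers. The labels call them epithelial, yet ΔHD1/fl line 2 and ΔHD1/- line 2 had Epcam at no more than 0.0746 CPM and Cdh1, the gene of E-cadherin, at no more than 0.522 CPM in any library, against at least 263 and 606 CPM in the other 7 untreated lines. They were not alike in all such markers, since Krt8, a keratin of simple epithelia, was at 0.336 CPM in untreated ΔHD1/fl line 2 and at 1089 CPM in untreated ΔHD1/- line 2, within the 601 to 1509 CPM of the other 7 lines. The summed level of 10 epithelial markers was 358 to 1316 CPM in these 2 untreated lines and 4336 to 20152 CPM in the others, that of 7 mesenchymal markers was 7799 to 7944 against 531 to 1704 CPM, and that of 8 fibroblast markers was 1112 to 1227 against 15.4 to 214 CPM. Among the fibroblast markers Pdgfra was high in both lines (416 and 629 CPM), but Lum was at 0 and Dcn at 0.858 and 1.51 CPM. The summed level of 5 endothelial markers was at most 2.07 CPM in any untreated line. That of 5 leukocyte markers was 16.7 to 186 CPM in the 2 lines against 3.01 to 13.9 CPM, while Ptprc, which defines leukocytes, was at 0 in both. ΔHD2/- lines 2 and 3 were near copies of each other (correlation across genes 0.993 to 0.997, against 0.807 to 0.957 in the 15 other pairs), although they differed by more than sampling noise and were counted separately. Fits were also run without each of these 2 pairs of lines.

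On the mouse assembly GRCm38, also called mm10, the gene spans are chr3:145646971-145649985 for Ccn1, chr10:24595442-24598683 for Ccn2, chr15:66891369-66923201 for Ccn4 and chr2:163820752-163833146 for Ccn5. Those of the others are chr4:63959785-64047015 for Tnc, chr2:118111876-118127133 for Thbs1, chr17:14665500-14694262 for Thbs2, chr3:54359267-54391041 for Postn and chr11:55394159-55420080 for Sparc, and reads were counted over the exons.

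Windows before a transcription start were taken from a table of RefSeq promoters (GRCm38.p6), in which 5 of the 9 genes matched, namely Ccn1, Tnc, Thbs2, Postn and Sparc. The 250 bases before the start are shown for Ccn1 and Tnc, which were higher with TGFβ in every line, for Sparc, which showed no common direction, and for Postn, the member with the largest mean difference under Wnt3a, so that their sequence can be set beside the values. Capitals mark matches, on either strand, to CATTCC (bound by Tead), CAGAC (Smad), TGANTCA (AP-1) or CTTTGAT (TCF/LEF), and no match overlapped another.
Ccn1 (minus strand, chr3:145649986-145650235): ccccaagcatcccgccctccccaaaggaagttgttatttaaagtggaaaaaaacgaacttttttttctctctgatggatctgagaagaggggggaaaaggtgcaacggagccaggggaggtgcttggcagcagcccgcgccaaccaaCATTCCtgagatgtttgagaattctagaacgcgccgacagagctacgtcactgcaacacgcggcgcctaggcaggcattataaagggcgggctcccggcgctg
Tnc (minus strand, chr4:64046937-64047186): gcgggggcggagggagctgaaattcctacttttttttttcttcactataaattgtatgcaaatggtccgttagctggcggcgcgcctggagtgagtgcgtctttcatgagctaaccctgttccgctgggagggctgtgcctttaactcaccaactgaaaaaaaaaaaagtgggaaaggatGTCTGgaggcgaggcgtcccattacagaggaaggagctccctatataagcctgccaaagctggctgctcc
Sparc (minus strand, chr11:55420081-55420330): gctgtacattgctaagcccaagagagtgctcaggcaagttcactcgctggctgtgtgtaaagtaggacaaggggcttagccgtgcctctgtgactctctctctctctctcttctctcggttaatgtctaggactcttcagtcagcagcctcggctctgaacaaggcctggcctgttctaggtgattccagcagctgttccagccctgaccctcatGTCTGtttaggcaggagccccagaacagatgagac
Postn (plus strand, chr3:54359017-54359266): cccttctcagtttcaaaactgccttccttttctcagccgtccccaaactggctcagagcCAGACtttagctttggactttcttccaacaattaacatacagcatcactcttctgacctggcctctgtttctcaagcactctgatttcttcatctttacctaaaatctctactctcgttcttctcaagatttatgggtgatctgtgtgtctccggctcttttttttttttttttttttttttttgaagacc

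The Ccn1 window held 1 CATTCC, beginning 103 bases before the start, and CATTCC was found in 12.6% of all 32851 windows of the same length. CAGAC was found in 1 of 2 windows of Tnc (the one shown, which overlaps the end of the gene span), in 1 of 2 windows of Postn (the one shown, which ends at the gene span, the other lying inside it), and in the windows of Sparc and Thbs2, and in 42.2% of all windows. Neither TGANTCA (6.75% of all windows) nor CTTTGAT (3.21%) was found in a window of these 5 genes. Such a match describes letters in a window and is not a measured binding site.

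Without cytokine, Thbs1 was the most abundant of the 9 genes per length in 7 of 9 lines (median over lines 366 RPKM), and Sparc was the most abundant in the 2 lines that lacked Epcam (670 and 706 RPKM). In CPM, Thbs1 was 1247 and 1677 in the ΔHD1/fl lines, 4646 and 2223 in the ΔHD1/- lines, 3883 and 2777 in the ΔHD2/fl lines, and 4056, 1190 and 1178 in the ΔHD2/- lines. All genotypes overlapped with their neighbours in the order of the means, which ran from ΔHD1/- (3435 ± 1714, SD, n = 2) through ΔHD2/fl (3330 ± 782, n = 2) and ΔHD2/- (2141 ± 1658, n = 3) to ΔHD1/fl (1462 ± 304, n = 2). Thbs1 varied least among the lines, over a 3.94-fold range.

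Ccn1, which encodes an integrin ligand of the CCN family, was at 108 and 153 CPM in the ΔHD1/fl lines, 278 and 154 CPM in the ΔHD1/- lines, 354 and 266 CPM in the ΔHD2/fl lines, and 253, 53.9 and 50.9 CPM in the ΔHD2/- lines. It was thus lowest in the near-copy lines, and its order of genotype means was ΔHD2/fl, ΔHD1/-, ΔHD1/fl and ΔHD2/-, where only ΔHD1/- and ΔHD1/fl did not overlap as neighbours. Ccn2, known as connective tissue growth factor, was at 231 and 26.1 CPM, 97.7 and 8.84 CPM, 357 and 503 CPM, and 187, 142 and 131 CPM in the same order of lines. The 2 lines without Epcam were the lowest for Ccn2, and the ΔHD2/fl lines were the highest, above every line of the other genotypes.

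Ccn4, Ccn5 and Sparc were highest in the lines without Epcam. Untreated Ccn4 was at 82.7 and 101 CPM in these 2 lines, at 47.1 CPM in ΔHD1/- line 1, and at 0.0901 to 5.69 CPM in the other 6 lines. Ccn5 was at 307 and 223 CPM in them and at 7.18 to 139 CPM in the other 7 lines. Sparc was at 2539 and 2674 CPM in them and at 745 CPM in ΔHD1/fl line 1, 322 CPM in ΔHD1/- line 1, 55.4 and 492 CPM in the ΔHD2/fl lines, and 207, 4.37 and 3.27 CPM in the ΔHD2/- lines. The 2 ΔHD1/fl lines therefore lay far apart for Ccn4 and Ccn5, as did the 2 lines of both ΔHD1 genotypes for Sparc. The part that the summed mesenchymal and fibroblast markers play in these levels was not tested.

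Tnc and Postn had their highest genotype mean in the ΔHD2/fl lines. Untreated Tnc was at 4.89 and 18.8 CPM in the ΔHD1/fl lines, 275 and 30.5 CPM in the ΔHD1/- lines, 710 and 635 CPM in the ΔHD2/fl lines, and 1575, 0.135 and 0.126 CPM in the ΔHD2/- lines. The ΔHD2/- group thus held both the highest line and 2 lines at about the level that a count of 0 allows. Untreated Postn was at 12.03 and 1.45 CPM, 11.9 and 0.0594 CPM, 460 and 209 CPM, and 9.26, 22.4 and 3.43 CPM in the same order, so that both ΔHD2/fl lines lay above the other 7 lines. Thbs2, a thrombospondin that unlike Thbs1 does not release latent TGFβ, reached 1 CPM in only 6 of 27 libraries and was at 2.54 CPM or less in untreated lines.

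**Figure D1:**
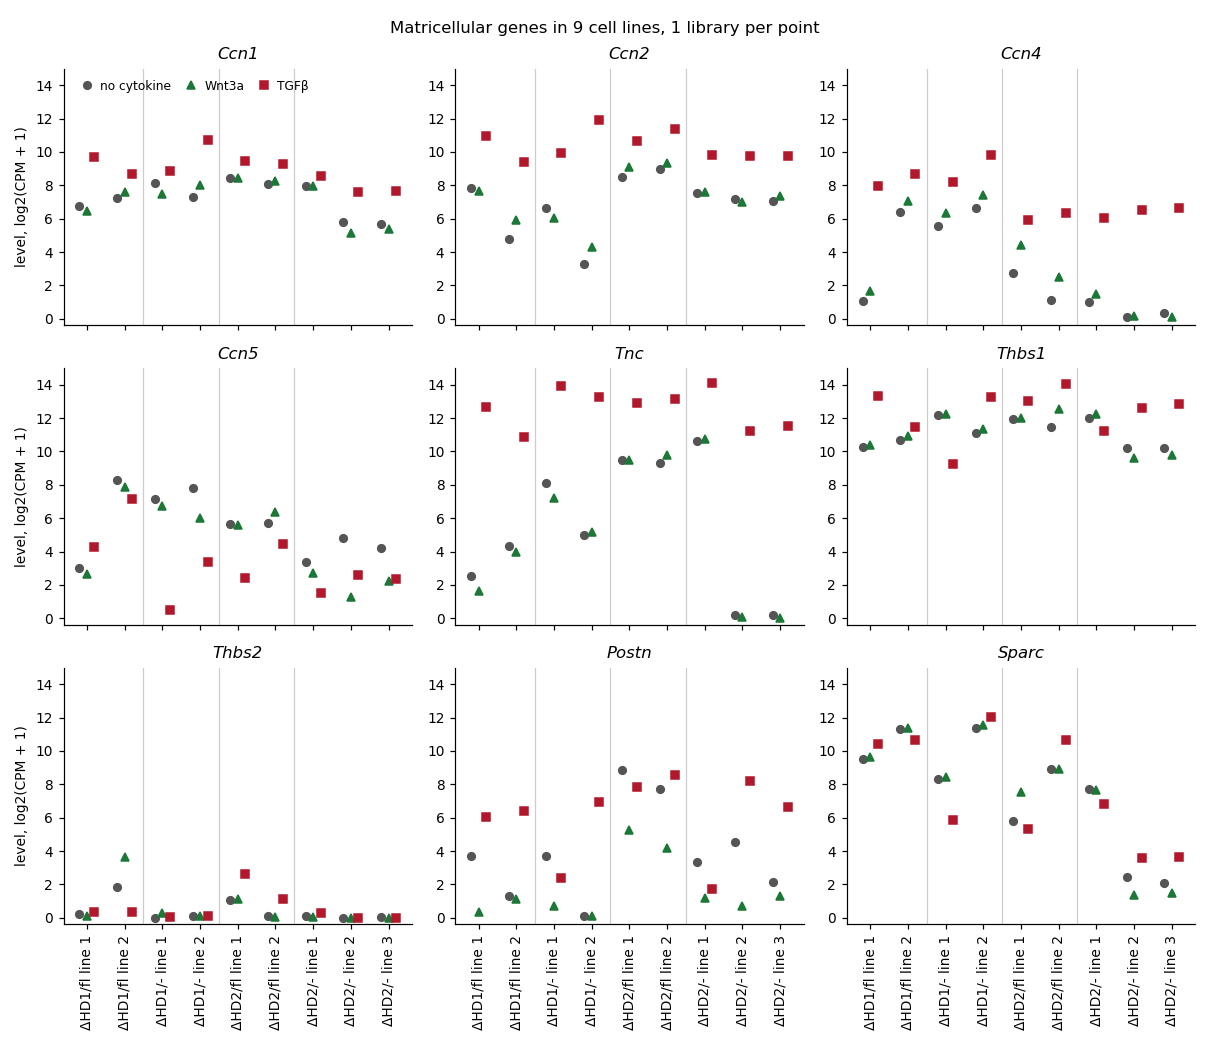
Level of each of the 9 genes as log2(CPM + 1) on the y axis in each of the 9 cell lines on the x axis, with 1 point per library for no cytokine (circles), Wnt3a (triangles) and TGFβ (squares), and grey lines between genotypes. The TGFβ squares of Ccn1, Ccn2, Ccn4 and Tnc lie above the circles in all 9 lines, and the Wnt3a triangles of Postn lie below the circles in 8 of 9 lines.

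The 9 genes together took 0.138% to 0.63% of the reads of untreated libraries and 0.809% to 3.138% of those of TGFβ libraries, with no overlap between them. In these bulk samples more RNA per cell and more cells with the RNA cannot be told apart. As the mean over the 4 genotypes, Tnc, Ccn4, Ccn2 and Ccn1 rose and Ccn5 fell, while Thbs1, Postn, Sparc and Thbs2 did not pass the test, although Thbs1 and Postn did with edgeR. A call required a limma p on log2(CPM + 1) that stayed within 0.05 after Benjamini-Hochberg adjustment over 13270 genes, together with a log2 fold change of 1 or more in either direction. The 5 of 9 calls stand beside 5.42% of all genes tested (1.86% higher and 3.56% lower), and the same 5 members passed with the line as a block, where 8.92% of all genes did. All 9 genes passed the filter on low values of 1 CPM in at least 2 libraries. The median log2 fold change was 1.71 over the 9 genes and -0.16 over all genes tested, the latter moving to -0.02 when libraries were scaled by median of ratios. Ccn1, Ccn2, Ccn4 and Tnc were higher with TGFβ than without cytokine in each of the 9 lines, as were 5.41% of all genes tested.

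Tnc, whose large multimeric product is a classic component of wound and tumour matrix, changed most. With TGFβ it was at 6599 and 1900 CPM in the ΔHD1/fl lines, 15813 and 9962 CPM in the ΔHD1/- lines, 7794 and 9142 CPM in the ΔHD2/fl lines, and 17573, 2381 and 2975 CPM in the ΔHD2/- lines. All TGFβ libraries were above all untreated ones. The share of all genes for which this holds is not given here. It cannot exceed the 5.41% of genes tested that were higher in each of the 9 lines. The 9 lines, which ranged from 0.126 to 1575 CPM without cytokine, came to lie within a 9.25-fold range. The log2 fold change was 6.93 ± 1.49 (SE, adjusted p = 0.00461), the highest of all 13270 genes tested. Within lines the fold was 11.0 to 14.4 in both ΔHD2/fl lines and in ΔHD2/- line 1, where Tnc was already at 635 CPM or more, and 57.5 to 1348 in the 4 ΔHD1 lines. In ΔHD2/- lines 2 and 3, with 3 untreated reads each, the ratios were 17621 (95% counting interval 6029 to 85449) and 23687 (8105 to 114862). Without these 2 lines the log2 fold change was 5.64 (adjusted p = 0.000664), and without the 2 lines that lack Epcam it was 7.06 (adjusted p = 0.0453). A gene on the opposite strand overlaps Tnc, as is the case for Ccn2 and Thbs1, and since the use of strand in the counting is not given in the sources used here, reads of the 2 genes cannot be told apart.

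Ccn2 with TGFβ was at 2017 and 667 CPM in the ΔHD1/fl lines, 981 and 3938 CPM in the ΔHD1/- lines, 1639 and 2652 CPM in the ΔHD2/fl lines, and 917, 861 and 872 CPM in the ΔHD2/- lines. Each of these values was above the highest untreated one, as for Tnc (at most 5.41% of all genes tested). The range among lines narrowed from 56.9-fold without cytokine to 5.91-fold with TGFβ. On the log2 scale Ccn2 rose by 3.67 ± 0.48 (SE, adjusted p = 0.000116). The change within lines was 4.59- to 10.0-fold in the 7 lines that express Epcam, and 25.5- and 445-fold in the 2 that do not, which were the lowest before treatment. Without those 2 lines the log2 fold change was 2.82 (adjusted p = 4.51e-06).

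Ccn4 was at 58.7 CPM or more in every TGFβ library, with 248 and 417 CPM in the ΔHD1/fl lines, 290 and 912 CPM in the ΔHD1/- lines, 58.7 and 81.6 CPM in the ΔHD2/fl lines, and 66.1, 91.6 and 99.4 CPM in the ΔHD2/- lines. The 4 ΔHD1 lines, 2 of which lack Epcam, were thus all above the 5 ΔHD2 lines, 2 of which are near copies, under TGFβ. This split between families was seen in the values and was not tested. Ccn4 rose by 4.41 ± 0.70 on the log2 scale (SE, adjusted p = 0.000515), and the change within lines was 5.04- to 9.07-fold where Ccn4 was already at 47.1 CPM or more. In the 6 lines with less it was 226-fold in ΔHD1/fl line 1, 10.3- and 71.1-fold in the ΔHD2/fl lines, and 63.1-fold in ΔHD2/- line 1. In ΔHD2/- lines 2 and 3, with 2 and 6 untreated reads, the ratios were 1017 (95% counting interval 281 to 8401) and 396 (182 to 1079). Without ΔHD2/- lines 2 and 3 the log2 fold change was 4.18 (adjusted p = 0.0235).

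Ccn1 with TGFβ was at 823 and 409 CPM in the ΔHD1/fl lines, 462 and 1713 CPM in the ΔHD1/- lines, 709 and 627 CPM in the ΔHD2/fl lines, and 376, 194 and 198 CPM in the ΔHD2/- lines. Untreated and TGFβ libraries overlapped across lines, but within lines Ccn1 was 1.49- to 11.1-fold higher in 9 of 9. Its log2 fold change was 1.71 ± 0.41 (SE, adjusted p = 0.0094), the smallest among the 4 genes that rose. In fits without the line as a block, the call was lost without ΔHD1/fl line 1, ΔHD1/- line 2 or either ΔHD2/fl line, with log2 fold changes of 1.37 to 1.74. It was also lost there without both lines that lack Epcam (1.55). With the line as a block, Ccn1 was called when ΔHD2/- lines 2 and 3 were averaged to 1 line (1.65, adjusted p = 0.00218). The block gave 1.49 without those 2 lines.

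Ccn5 moved the other way. With TGFβ it was at 18.5 and 144 CPM in the ΔHD1/fl lines, 0.397 and 9.57 CPM in the ΔHD1/- lines, 4.23 and 20.7 CPM in the ΔHD2/fl lines, and 1.82, 4.99 and 4.17 CPM in the ΔHD2/- lines. It was lower than without cytokine in 8 of 9 lines, with ΔHD1/fl line 1 as the exception, where it was 2.58-fold higher. The log2 fold change was -2.43 ± 0.74 (SE, adjusted p = 0.0336). The largest difference within a line was in ΔHD1/- line 1, from 139 to 0.397 CPM. The call did not hold when the libraries were scaled by median of ratios (-2.28, adjusted p = 0.0511) or when 1 of 7 lines was left out in turn, namely any line other than the 2 of ΔHD1/fl (adjusted p = 0.0543 to 0.149). It was also lost without the near-copy ΔHD2/- lines 2 and 3 together (-2.40), and it held without the 2 lines that lack Epcam (-2.42). None of these fits used the line as a block. With the block the value without ΔHD2/- lines 2 and 3 was also -2.40. With these 2 lines averaged to 1 line, the block called Ccn5 (-2.43, adjusted p = 0.00149).

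Thbs1 split the lines. With TGFβ it was at 10166 and 2866 CPM in the ΔHD1/fl lines, 601 and 10001 CPM in the ΔHD1/- lines, 8389 and 16903 CPM in the ΔHD2/fl lines, and 2356, 6133 and 7235 CPM in the ΔHD2/- lines. It was 1.71- to 8.15-fold higher than without cytokine in 7 lines and lower in ΔHD1/- line 1, from 4646 to 601 CPM, and in ΔHD2/- line 1, from 4056 to 2356 CPM. These 2 lines had the highest untreated levels of Thbs1 of all 9. The log2 fold change of 1.19 ± 0.52 (SE) did not pass the test (adjusted p = 0.124), with a 95% interval of 0.10 to 2.28, whereas edgeR on the recovered reads called it (1.67, adjusted p = 0.0407), as did the line as a random effect (adjusted p = 0.04999), the fit without ΔHD1/- line 1 (1.83, adjusted p = 0.0212) or without ΔHD2/- line 1 (1.46, adjusted p = 0.0411). Other omissions lowered it, to 0.55 without ΔHD1/- line 2 (adjusted p = 0.485), 0.65 without the near-copy ΔHD2/- lines 2 and 3 (adjusted p = 0.525) and 0.83 without the 2 lines that lack Epcam (adjusted p = 0.3).

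Postn followed the same 2 lines. With TGFβ it was at 63.7 and 84.7 CPM in the ΔHD1/fl lines, 4.25 and 122 CPM in the ΔHD1/- lines, 228 and 369 CPM in the ΔHD2/fl lines, and 2.35, 287 and 101 CPM in the ΔHD2/- lines. It was higher than without cytokine in 6 lines and lower in ΔHD1/- line 1, ΔHD2/- line 1 and ΔHD2/fl line 1. The log2 fold change of 2.14 ± 0.80 (SE) had an adjusted p of 0.0732, and it was called by edgeR (2.70, adjusted p = 0.0481), with the line as a random effect (adjusted p = 0.0218), and without ΔHD1/- line 1 (3.16, adjusted p = 0.0185) or ΔHD2/- line 1 (2.62, adjusted p = 0.0156). Without the 2 lines that lack Epcam, where Postn was 0.0594 and 1.45 CPM before and 122 and 84.7 CPM after treatment, the value was 0.77 (adjusted p = 0.606). It was 1.12 without ΔHD1/- line 2 alone (adjusted p = 0.385) and 1.20 without the near-copy ΔHD2/- lines 2 and 3 (adjusted p = 0.369).

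Sparc showed no common direction. With TGFβ it was at 1371 and 1603 CPM in the ΔHD1/fl lines, 56.9 and 4262 CPM in the ΔHD1/- lines, 39.1 and 1586 CPM in the ΔHD2/fl lines, and 113, 11.1 and 11.4 CPM in the ΔHD2/- lines. It was higher than without cytokine in 5 lines and lower in 4, and the mean log2 fold change was 0.10 ± 1.18 (SE, adjusted p = 0.964, 95% interval -2.38 to 2.59). With the line as a block the interval was -0.89 to 1.09 (adjusted p = 0.864). In ΔHD1/- line 1 and in ΔHD2/- line 1, Sparc, Thbs1, Ccn5 and Postn were all lower with TGFβ, while Tnc, Ccn1, Ccn2 and Ccn4 were higher. Thbs2 did not pass 5.18 CPM in any TGFβ library and was not called (0.18 ± 0.37, SE, adjusted p = 0.787).

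**Figure D2:**
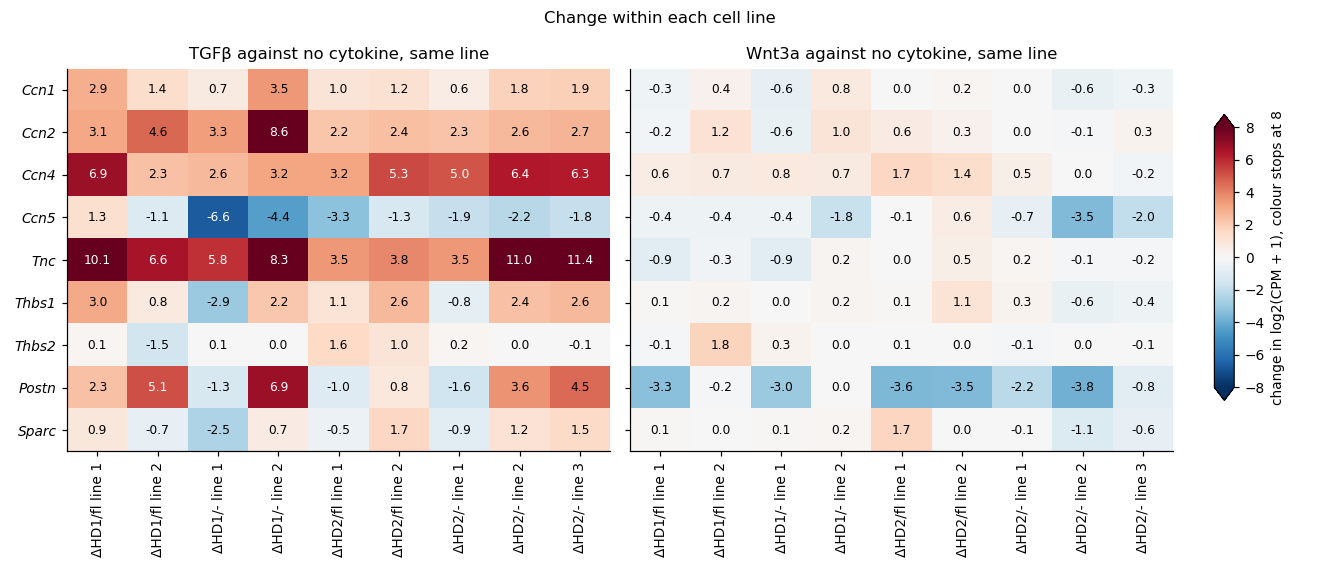
Difference in log2(CPM + 1) between TGFβ (left) or Wnt3a (right) and no cytokine in the same cell line, with genes as rows and lines as columns, red for higher and blue for lower. Both panels share the untreated libraries, and the rows of Ccn1, Ccn2, Ccn4 and Tnc are red in all 9 columns of the TGFβ panel, while the Postn row is blue in 8 of 9 columns of the Wnt3a panel.

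Within single genotypes the 2 or 3 lines gave few calls unless the line was used as a block, the same line having been grown under each treatment. In ΔHD1/fl lines none of the 9 genes was called under TGFβ by limma without the block (0.211% of all genes, none by edgeR, and 5 of 9 beside 9.5% of all genes at an unadjusted p under 0.05), and Ccn2, Ccn1, Tnc and Ccn4 were called with it (5.42% of all genes). In ΔHD1/- lines Ccn2 alone was called without the block (1.43% of all genes, log2 fold change 5.98, adjusted p = 0.0065), and Ccn1, Ccn2, Ccn4, Tnc and Ccn5 with it (9.33%). Without ΔHD1/- line 2 the Ccn2 value was 3.32 and was not called, in a comparison of 1 library with 1, whose spread was taken from the other groups. Without both lines that lack Epcam, under the same limit, the block called the same 4 genes in ΔHD1/fl (12.6% of all genes) and Ccn2 and Ccn5 in ΔHD1/- (12.3%). In ΔHD2/fl lines none of the 9 genes was called without the block (0.286%, none by edgeR, and 2 of 9 beside 8.71% of all genes at an unadjusted p under 0.05), and Ccn4 was called with it (4.21, adjusted p = 0.0143, 5.24% of all genes). In ΔHD2/- lines Ccn4 alone was called without the block (0.806%, log2 fold change 5.92, adjusted p = 0.0231), a call that was lost on leaving out any of the 3 lines (adjusted p = 0.0521 to 0.448), and Ccn2, Tnc and Ccn4 with the block (6.03%). The block counts the near-copy lines 2 and 3 as separate. With these averaged to 1 line it called Tnc (7.34, adjusted p = 0.0361) and Ccn4 (5.70, adjusted p = 0.013) but not Ccn2 (2.71% of all genes), and without both, which left 1 library a treatment and a spread taken from the other groups, it called none of the 9 (1.89%), with Tnc at 3.48 and Ccn4 at 5.04.

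Wnt3a gave no call among the 9 genes as the mean over genotypes by limma or edgeR, where 0.0226% of all genes were called, and 1 of 9 genes, Postn, had an unadjusted p under 0.05, as had 4.63% of all genes. The median log2 fold change over the 9 genes was 0.11 and that over all genes was -0.06. None of the 9 was higher in all 9 lines (1.73% of all genes) or lower in all 9 (3.22%). With the block there was no call either (0.241% of all genes). Within single genotypes limma and edgeR called no member under Wnt3a, beside 0.113% of all genes for ΔHD2/fl lines, 0.0151% for ΔHD1/fl lines and 0.00754% for each recombined genotype, and 1 of 9 genes, Postn in ΔHD2/fl lines, had an unadjusted p under 0.05, as had 1.31% of all genes there. Both cytokines were compared with the same untreated libraries.

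Postn had the second lowest log2 fold change of all 13270 genes under Wnt3a. With Wnt3a it was at 0.285 and 1.17 CPM in the ΔHD1/fl lines, 0.664 and 0.081 CPM in the ΔHD1/- lines, 37.1 and 17.4 CPM in the ΔHD2/fl lines, and 1.31, 0.664 and 1.47 CPM in the ΔHD2/- lines. It was lower than without cytokine in 8 of 9 lines, and in the ninth, ΔHD1/- line 2, both values were under 3 reads. In the ΔHD2/fl lines, which held most of the untreated Postn, the level went from 460 to 37.1 CPM and from 209 to 17.4 CPM, ratios of 0.0805 and 0.083. The mean log2 fold change was -2.26 ± 0.80 (SE, 95% interval -3.94 to -0.58) with an adjusted p of 0.865, so Postn did not pass the correction over all genes. Without the 2 lines that lack Epcam it was -3.03 (adjusted p = 0.264), and with the block its adjusted p was 0.216.

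Ccn4, the Wnt1-inducible family member, was at 2.22 and 135 CPM in the ΔHD1/fl lines with Wnt3a, 80.5 and 167 CPM in the ΔHD1/- lines, 20.2 and 4.80 CPM in the ΔHD2/fl lines, and 1.81, 0.124 and 0.0716 CPM in the ΔHD2/- lines. These values were 1.63- to 4.18-fold the untreated ones in the 7 lines other than ΔHD2/- lines 2 and 3, where Ccn4 was at the limit of detection. The largest ratios, 3.55 and 4.18, were those of the 2 ΔHD2/fl lines. The log2 fold change was 0.76 ± 0.70 (SE, adjusted p = 1.0 after rounding).

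Ccn5 with Wnt3a was at 1.45 and 3.61 CPM in the near-copy ΔHD2/- lines 2 and 3, against 27.2 and 17.3 CPM without cytokine, and at 63.8 CPM in ΔHD1/- line 2, against 223 CPM. Its other 6 lines had ratios of 0.596 to 1.54, and its log2 fold change of -0.82 ± 0.74 (SE) did not pass the test and was -0.47 without the near-copy lines. Thbs1 differed most in ΔHD2/fl line 2, at 6047 CPM with Wnt3a and 2777 CPM without, and Sparc in ΔHD2/fl line 1, at 183 and 55.4 CPM. Ccn1, Ccn2 and Tnc had log2 fold changes of -0.04, 0.31 and -0.19, with 95% intervals of -0.91 to 0.82, -0.70 to 1.32 and -3.34 to 2.96. These intervals are without the line as a block, so they include the differences between lines before treatment. Within lines the changes in log2(CPM + 1) were -0.64 to 0.77, -0.60 to 1.17 and -0.93 to 0.47. The sign for Ccn1 turned under median-of-ratios scaling (0.03).

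**Figure D3:**
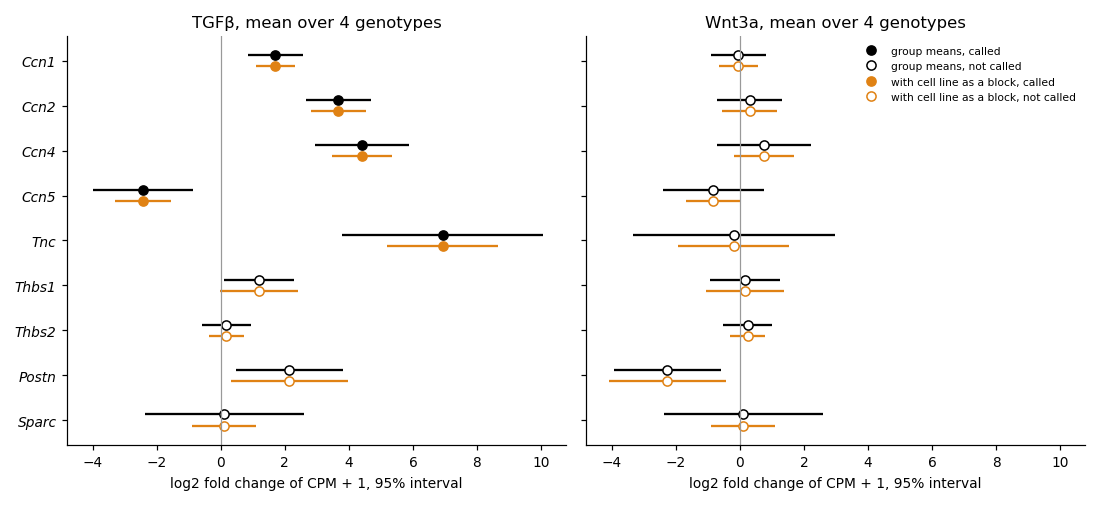
Mean log2 fold change of CPM + 1 over the 4 genotypes (x axis) for each gene (y axis) under TGFβ and Wnt3a, with 95% intervals, from group means alone (black) and with cell line as a block (orange), and filled points for calls. Under TGFβ the intervals of Tnc, Ccn4, Ccn2 and Ccn1 lie above 0 and that of Ccn5 below it, with called points in both fits, and under Wnt3a every point is open.

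The question of whether losing the floxed wild-type allele changed these genes was addressed by comparing each recombined genotype with its fl genotype. No member was called in any of the 3 treatments in either family by limma or edgeR. For ΔHD1/- against ΔHD1/fl, 0.0678% of all genes were called without cytokine, 0.0452% with Wnt3a and 0.0301% with TGFβ, and 0, 1 (Thbs2) and 1 (Ccn5) of the 9 genes had an unadjusted p under 0.05, beside 4.85%, 5.86% and 8.22% of all genes. For ΔHD2/- against ΔHD2/fl, 0.55%, 0.686% and 0.354% of all genes were called, and 2 (Ccn1, Postn), 5 (Ccn1, Ccn4, Ccn5, Tnc, Postn) and 1 (Thbs2) of the 9 had an unadjusted p under 0.05, beside 8.61%, 8.64% and 7.98% of all genes.

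All 9 genes had a lower mean on the log2 scale in the ΔHD2/- than in the ΔHD2/fl lines without cytokine, with log2 differences of -0.52 to -5.74, none of which was called. Their median was -1.58, beside -0.03 over all genes tested. The share of all genes with a lower mean is not given here. Set alone against the ΔHD2/fl mean, ΔHD2/- line 1 was lower for 6 of the 9 genes and higher for Tnc, Thbs1 and Sparc, so that the direction of these 3 rested on the near-copy lines 2 and 3. The largest differences were those of Tnc (-5.74 ± 2.85, SE, adjusted p = 0.609, and -0.37 by edgeR, adjusted p = 0.984) and Postn (-4.93 ± 1.52, adjusted p = 0.272). The Tnc difference was made by ΔHD2/- lines 2 and 3, since ΔHD2/- line 1 at 1575 CPM lay above both ΔHD2/fl lines. For Postn all 3 ΔHD2/- lines (3.43 to 22.4 CPM) lay below both ΔHD2/fl lines (209 and 460 CPM). Without ΔHD2/- line 1, Ccn1, Tnc and Postn were called, but the ΔHD2/- group then held only the near-copy lines, whose spread is not that of independent lines. The share of all genes called in that fit is not given here, so these calls have no background.

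In ΔHD1 lines the largest untreated differences were those of Tnc (3.11 ± 3.12, SE) and Ccn4 (2.40 ± 1.46), both higher in ΔHD1/-. When ΔHD1/fl line 2, 1 of the lines without Epcam, was left out, calls among the members appeared without cytokine and with Wnt3a. That fit set 1 ΔHD1/fl line, assumed to vary like the other groups, against a ΔHD1/- group that still held a line without Epcam. Its share of all genes called is not given here, so the calls are not read further. Leaving out both lines without Epcam left 1 line a genotype, under the same assumption. Calls among the members appeared there too, without cytokine and with Wnt3a. The share of all genes called in that fit is not given here either, so those calls are not read further.

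When the TGFβ response of recombined lines was set against that of fl lines, none of the 9 genes was called (0.00754% of all genes called for ΔHD1 and 0.0301% for ΔHD2), nor did the Wnt3a response (0% and 0.0151%), by limma or edgeR. Ccn5 in the ΔHD1 family had the largest difference in TGFβ response, -5.61 ± 2.20 (SE, unadjusted p = 0.0205, adjusted p = 1.0 after rounding), and was the only member with an unadjusted p under 0.05, as had 0.98% of all genes. In that family the change in log2(CPM + 1) of Ccn5 was 1.25 and -1.09 in the ΔHD1/fl lines and -6.65 and -4.40 in the ΔHD1/- lines.

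The genes around these proteins were read from lists of relatives, receptors and pathway targets. Under TGFβ their counts stand beside 1.86% of all genes called higher and 3.56% lower, or 3.02% and 5.9% with the block. The median over all genes was -0.16. Under Wnt3a 0.0226% of all genes were called, and 0.241% with the block. Of 19 other CCN, thrombospondin, tenascin, Sparc-family and matricellular genes, 12 were tested, and under TGFβ 1 rose and 3 fell (median log2 fold change 0.24). Smoc2, of the Sparc family, rose (1.01, adjusted p = 0.0345), and Lgals3, the gene of galectin 3 (-2.77), Tnxb, another tenascin (-2.14), and Spp1, the gene of osteopontin (-1.54), fell. Of 16 receptor genes, 14 were tested, 4 rose and 2 fell (median 0.55): Itgb3 (3.89), Itga2 (3.15), Itga5 (2.92) and Itgb1 (1.22), integrin subunits that bind matrix ligands, rose, and Itga6 (-2.12), a laminin receptor subunit, and Sdc4 (-1.08), a proteoglycan, fell.

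Of 10 matrix partner genes, Bmp1, the procollagen proteinase that also binds periostin, rose (1.89, adjusted p = 0.00178), and the other 9 were not called (median 0.95). With the block 5 of the 10 were called, Col1a1, Col5a1, Col5a2 and Fbn1 among them. Of 11 TGFβ target genes 5 rose (median 1.56), Fn1 (1.90) and Smad7 (1.71) among them, and 8 with the block. Of 20 Yap and Tead target genes other than Ccn1 and Ccn2, 3 rose (median 0.55), namely Nt5e (2.77), Gadd45a (2.10) and Amotl2 (1.01), and 5 with the block. Of 8 tested Wnt target genes, Notum, which inactivates Wnt proteins, fell (-3.99, adjusted p = 0.000117) and none rose (median -0.15). Under Wnt3a, Axin2 (4.22, adjusted p = 7.26e-10) was the only gene of these lists called without the block, and with it Notum (2.16) was called higher and Smoc1 (-1.56), of the Sparc family, lower.

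Markers of cell type were read in the same way under TGFβ. None of 10 epithelial markers was called (median -0.91), and 5 fell and 1 rose with the block. Of 7 mesenchymal markers S100a4 fell (median 0.70), and with the block Cdh2 and Zeb2 rose as well. Of 5 tested fibroblast markers none was called (median -0.26, with Lum, Fap and Dpt below the filter), of 2 tested endothelial markers Cdh5 rose (1.20, from a mean of 0.0674 to 1.93 CPM), and of 2 tested leukocyte markers none was called and Csf1r was with the block. The part of these markers in the responses of the 9 genes was not tested.

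**Figure D4:**
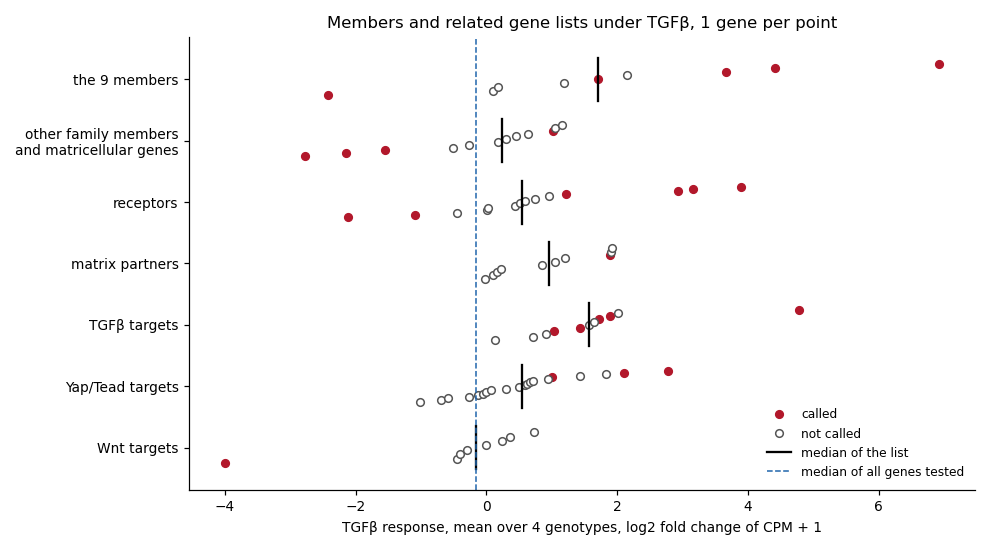
Mean TGFβ response over the 4 genotypes as log2 fold change of CPM + 1 (x axis) for the 9 members and for the tested genes of 6 related lists (y axis), with 1 point per gene, filled where called, a black bar at each list's median and a dashed line at the median of all genes tested. Tnc at 6.93 lies farthest to the right, Ccn5 at -2.43 lies to the left of all other members, and the medians of all lists but the Wnt targets lie above 0.

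Across the 27 libraries the members had different partners in pattern, given here as the Pearson correlation of log2(CPM + 1) and as a description only, because the libraries share lines and treatments. Nearest to Tnc were Lrrc8c (0.96) and Rgs16 (0.93), and nearest to Ccn1 was Ddah1 (0.93). For Ccn2 they were Sox11 and Kctd5 (0.89 each), for Ccn4 Slc41a3 (0.94) and Mprip (0.93), and for Sparc Tgm2 and Tcirg1 (0.93 each). For Ccn5 they were Rab40b (0.90) and Atoh8 (0.86), for Thbs1 9530068E07Rik and Tmem231 (0.86 each), for Postn Mcam and Fcf1 (0.77 each), and for Thbs2 Lgr5 (0.86) and Pla2r1 (0.83), the last over few reads. Among the members themselves Ccn1 and Tnc were most alike (0.89), and Ccn2 and Ccn5 were least alike (-0.50).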

How the data were processed

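RNA of 27 libraries was analysed. The libraries were stranded and polyA-selected. The authors used STAR for alignment to mm10, kept reads with 1 location, and summed them over RefSeq exons in QuasR. The deposited values are CPM, and each library summed to 1000000. All values (100%, tolerance 0.01) were whole multiples of the worth of 1 read, so reads were recovered. Symbols matched 24374 of 24454 identifiers, and RPKM was computed here from union exon lengths.

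The filter was 1 CPM in 2 or more libraries, which left 13270 genes. Tests used log2(CPM + 1), which understates changes of low genes, in limma 3.58.1 (trend, robust) in R 4.3.3 over 12 group means in 20 comparisons. Alternatives included edgeR 4.0.16 (quasi-likelihood, on recovered reads), other scaling, pseudocount and filter, left-out lines and cell line as a block. Libraries of the same line deviated together from their group means (correlation 0.509 to 0.94 over 27 pairs). Replicates were separate lines, from different mice per the labels, which name 2 lines a genotype although ΔHD2/- has 3. Fits were tested on simulated data. Intervals within lines cover counting error only.

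The 9 genes are the named ones, with up to 3 risen and 3 fallen called genes of each list, up to 2 nearest patterns of each member, and Axin2. A gene that these rules also name is not reported here. Members and lists were chosen with earlier results of these data known. Single genes named for their loss or gain of a call, Itgb1, Csf1r, Smoc1, Cdh2, Zeb2 and the matrix genes called with the block, were chosen after their values were seen. The settings without both lines that lack Epcam and without ΔHD2/- lines 2 and 3, and those of the block without either pair or with ΔHD2/- lines 2 and 3 averaged, were added after seeing the data.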

Additional observations from a re-analysis of the deposited data

Results flagged for a closer look

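In 3 of 18 sets of 9 lines (9 genes under 2 cytokines) 1 line stood apart from the others by Dixon's test at the 95% level. Chance gives about 1 in 20 for independent values. These values are not independent, since ΔHD2/- lines 2 and 3 are near copies and both cytokines share the untreated libraries. The number of sets is thus a description only. Ccn2 under TGFβ differed from the untreated library by 8.64 on the log2(CPM + 1) scale in ΔHD1/- line 2, and the next line by 4.62. Thbs2 under Wnt3a changed by 1.81 in ΔHD1/fl line 2, from 2.54 to 11.4 CPM, while most other lines held few Thbs2 reads and could show little change on this scale. Sparc under Wnt3a changed by 1.71 in ΔHD2/fl line 1, from 55.4 to 183 CPM.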

How the results depend on the processing

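Of 290 alternative counts of called members 243 stayed within 1.5 times the main count, and of 477 alternative values of single genes 423 kept their direction and side of the threshold, 24 lost a call, 11 gained one, 18 turned sign and 1 level moved beyond the replicate spread. The cause was not tested where a count moved. Leaving out 1 line in turn gave 3 to 6 members called under TGFβ over all genotypes (5 with every line, and 7, with Thbs1 and Postn, under edgeR, a random effect of line or an unadjusted p with 1.5-fold), 0 to 1 within ΔHD1/fl, ΔHD1/- and ΔHD2/-, 0 to 2 for ΔHD1/- against ΔHD1/fl without cytokine and with Wnt3a, 0 to 3 and 0 to 2 for ΔHD2/- against ΔHD2/fl, and 0 to 1 for the difference in TGFβ response in ΔHD2, where Tnc was called without ΔHD2/- line 1, which leaves only the near-copy lines 2 and 3. With the replicate block, the cell line, TGFβ calls numbered 4 and 5 for the fl and recombined lines of ΔHD1 and 1 and 3 for those of ΔHD2. With the line as a random effect they were, in the same order, 4, 5, 1 and 4. At an unadjusted p of 0.05 and 1.5-fold they were 5, 4, 2 and 3, with 1 under Wnt3a over all genotypes and in ΔHD2/fl, 1 for ΔHD1/- against ΔHD1/fl with Wnt3a and with TGFβ, 2, 5 and 1 for ΔHD2/- against ΔHD2/fl, and 1 for the TGFβ response in ΔHD1. Fits of the compared groups alone gave 0 in ΔHD1/- and 2 in ΔHD2/-. ΔHD2/- had 0 with edgeR, with lines 2 and 3 averaged and without both, and with the replicate block as well 2 when averaged and 0 without both. Without both lines that lack Epcam, each ΔHD1 group is 1 library and its spread is taken from the other groups. Calls among the members were also made in that setting, under TGFβ in both ΔHD1 genotypes. They were made for ΔHD1/- against ΔHD1/fl as well, without cytokine and with Wnt3a. The share of all genes called is not given here for those fits without the block, so their counts are not read further. With the replicate block the difference in TGFβ response of Ccn5 in ΔHD1 was -7.90. A block on replicate number between genotypes, which the labels do not tie to a shared source, left no member called (same-number correlation 0.117 to 0.472 in ΔHD1 and 0.0871 to 0.19 in ΔHD2).

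The sign turned only for genes that were not called. Sparc under TGFβ (0.10) ranged from -0.29 to 0.4982 on leaving out 1 line, with -0.29 without line 2 of ΔHD1/-, -0.1685 without line 2 of ΔHD2/fl, -0.0886 without line 1 of ΔHD1/fl and -0.0117 without line 3 of ΔHD2/-. It was -0.0973 without both lines that lack Epcam and -0.2674 without ΔHD2/- lines 2 and 3, with or without the block. Thbs2 under TGFβ ranged from -0.0231 (without ΔHD1/fl line 1) to 0.3748. Ccn1 under Wnt3a (-0.04) became 0.0279 with median-of-ratios scaling, 0.0741 with edgeR, 0.0401 without line 1 of ΔHD1/fl, and 0.0294 without ΔHD2/- lines 2 and 3 (with or without the block), and it ranged from -0.2208 to 0.1309 on leaving out 1 line. Under Wnt3a Ccn2 became -0.0637 without both lines that lack Epcam (with or without the block), and Sparc ranged from -0.1145 (without ΔHD2/fl line 1) to 0.3247. Over all genes edgeR called 855 under TGFβ (719 with limma) and 3 under Wnt3a (3), but within genotypes 6, 70, 3 and 66 under TGFβ for ΔHD1/fl, ΔHD1/-, then fl and recombined ΔHD2 (28, 190, 38 and 107 with limma), and at most 6 in any comparison of genotypes (91 with limma). Depth limits Thbs2 in most libraries and the untreated Ccn4 and Tnc of ΔHD2/- lines 2 and 3.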
